A study of Mus musculus with 24 samples.

Results

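The expression of 9 genes of fatty acid uptake and binding (Fabp3, Fabp4, Fabp5, Cd36, Lpl, Angptl4, Slc27a1, Slc27a2 and Gpihbp1) was followed in brite adipocytes after knockdown of the long noncoding RNA Ctcflos (1300015D01Rik). The genes were chosen by symbol from a table of 52089 symbols, in which they hold 71 of 168326 transcript entries. Each gene is given by its NM_ entry with the highest mean RPKM over the 24 libraries. The cells were primary preadipocytes from the stromal vascular fraction of inguinal white adipose tissue of 129SvEv mice, differentiated with rosiglitazone. They were reverse transfected on the first day after induction with 50 nM of an LNA gapmer antisense oligonucleotide against Ctcflos (KD) or with a nontargeting control oligonucleotide (NC) and harvested 24 h or 72 h later, which gave 4 groups of 6 libraries. All 4 groups had the same inducers and rosiglitazone, so no group shows these cells without the drug or without transfection. The labels do not say which of the study's gapmers, aimed at different Ctcflos isoforms, a KD library received, so effects of an oligonucleotide outside its target cannot be told apart from those of the knockdown.

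Adipocytes take up fatty acids in steps. Lipoprotein lipase (LPL), secreted by the adipocyte and held at the capillary wall by GPIHBP1, splits the triglycerides of circulating lipoproteins, and ANGPTL4 inhibits the enzyme. CD36 and the fatty acid transport proteins of the SLC27 family help the released fatty acids across the plasma membrane, and the fatty acid binding proteins (FABPs) carry them through the cytosol. FABP4 is a classical marker of mature adipocytes, FABP5 a more widely expressed relative, and FABP3 the form best known from heart and muscle that also accompanies thermogenic activation of brown fat. Several of these genes are direct targets of PPARγ, the nuclear receptor that rosiglitazone activates.

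Promoter sequences are shown for 3 members with unlike changes described below: Fabp3, which rose in KD, Slc27a1, which fell, and Cd36, whose difference did not pass the test. They are the 250 bases before an annotated start in RefSeq (GRCm38.p6), and the table holds 4 of the 9 genes. Capitals mark 2 motifs, each searched on both strands, so that a match on the other strand appears as its reverse complement. The first is AGGTCA, bound by nuclear receptors such as PPARγ with RXR as part of a longer element, and the second is the promoter element called the CCAAT box.
Fabp3, chr4:130308488-130308737, plus strand: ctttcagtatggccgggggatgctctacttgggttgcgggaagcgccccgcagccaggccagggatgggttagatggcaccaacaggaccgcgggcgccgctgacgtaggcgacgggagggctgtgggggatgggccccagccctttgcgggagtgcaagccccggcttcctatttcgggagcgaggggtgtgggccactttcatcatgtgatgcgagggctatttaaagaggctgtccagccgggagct
Cd36, chr5:17835897-17836146, minus strand: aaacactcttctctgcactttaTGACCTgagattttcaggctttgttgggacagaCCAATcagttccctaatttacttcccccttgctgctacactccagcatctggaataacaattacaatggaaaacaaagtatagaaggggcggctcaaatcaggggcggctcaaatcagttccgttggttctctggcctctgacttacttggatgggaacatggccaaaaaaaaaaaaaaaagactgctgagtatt
Slc27a1, first of 3 starts, chr8:71568621-71568870, plus strand: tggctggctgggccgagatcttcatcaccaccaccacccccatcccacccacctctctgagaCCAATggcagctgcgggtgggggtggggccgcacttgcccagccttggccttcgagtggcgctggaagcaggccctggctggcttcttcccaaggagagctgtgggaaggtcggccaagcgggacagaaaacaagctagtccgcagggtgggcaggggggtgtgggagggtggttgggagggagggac
The Fabp3 window held neither motif. The Cd36 window held the nuclear receptor motif on the other strand, 228 bases before the start, and the second motif 195 bases before it. The Slc27a1 window held only the second motif, 188 bases before the start. Of 32851 promoter windows of this length, 14.0% held the nuclear receptor motif and 33.8% the second motif. These matches describe letters in a window and were not tested as binding sites. Fabp4, Fabp5, Lpl, Angptl4 and Gpihbp1 were not in the table of promoters.

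The libraries were 3′ end sequencing libraries (BRB-seq), deposited as RPKM. Between 1391832 and 5423840 mapped reads per library were recovered from the steps of the RPKM values, with a median of 3945867. Levels below are scaled RPKM, the deposited RPKM divided by 1 scale factor per library. Reads of a 3′ library do not grow with transcript length, so RPKM understates long transcripts against short ones. Ctcflos, read from 1 transcript entry, averaged 0.741 ± 0.515 RPKM in NC and 0.189 ± 0.244 RPKM in KD at 24 h, 25.5% of NC (SD, n = 6 per group, exact permutation p = 0.045, two-sided). At 72 h it averaged 1.23 ± 0.408 RPKM in NC and 0.231 ± 0.22 RPKM in KD, 18.8% of NC (SD, n = 5 and 6, exact permutation p = 0.0022, two-sided). Its reads summed to 60 in NC and 12 in KD at 24 h, and to 91 and 17 at 72 h. Whether this entry is the isoform aimed at is not given by the labels. NC 72 h replicates 2 and 3 differed by less than the sampling noise and were counted as 1 sample, which leaves 5 samples in that group. The GEO labels only number the replicates, so the p-values measure the spread between these libraries. A clustering of the libraries by their deviations from the group means was cut into 2 sets, a larger of 16 and a smaller of 8. No label names these sets, and both had members in every group (KD 24 h replicates 3 and 4, NC 24 h replicates 5 and 6, KD 72 h replicates 5 and 6, and NC 72 h replicates 4 and 5 in the smaller set). Between libraries of different groups, the deviations correlated by 0.07 on average within a set and by -0.09 across sets. The sets were drawn from the same values that are compared, so p-values within a set are descriptive only. Knockdown results at 24 h and 72 h of the 7 of these genes that could be tested are also given within each set. So are the Fabp4, Fabp5, Slc27a1 and Angptl4 changes over time. Results of genes outside the 9 are given over all libraries only.

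**Figure D1:**
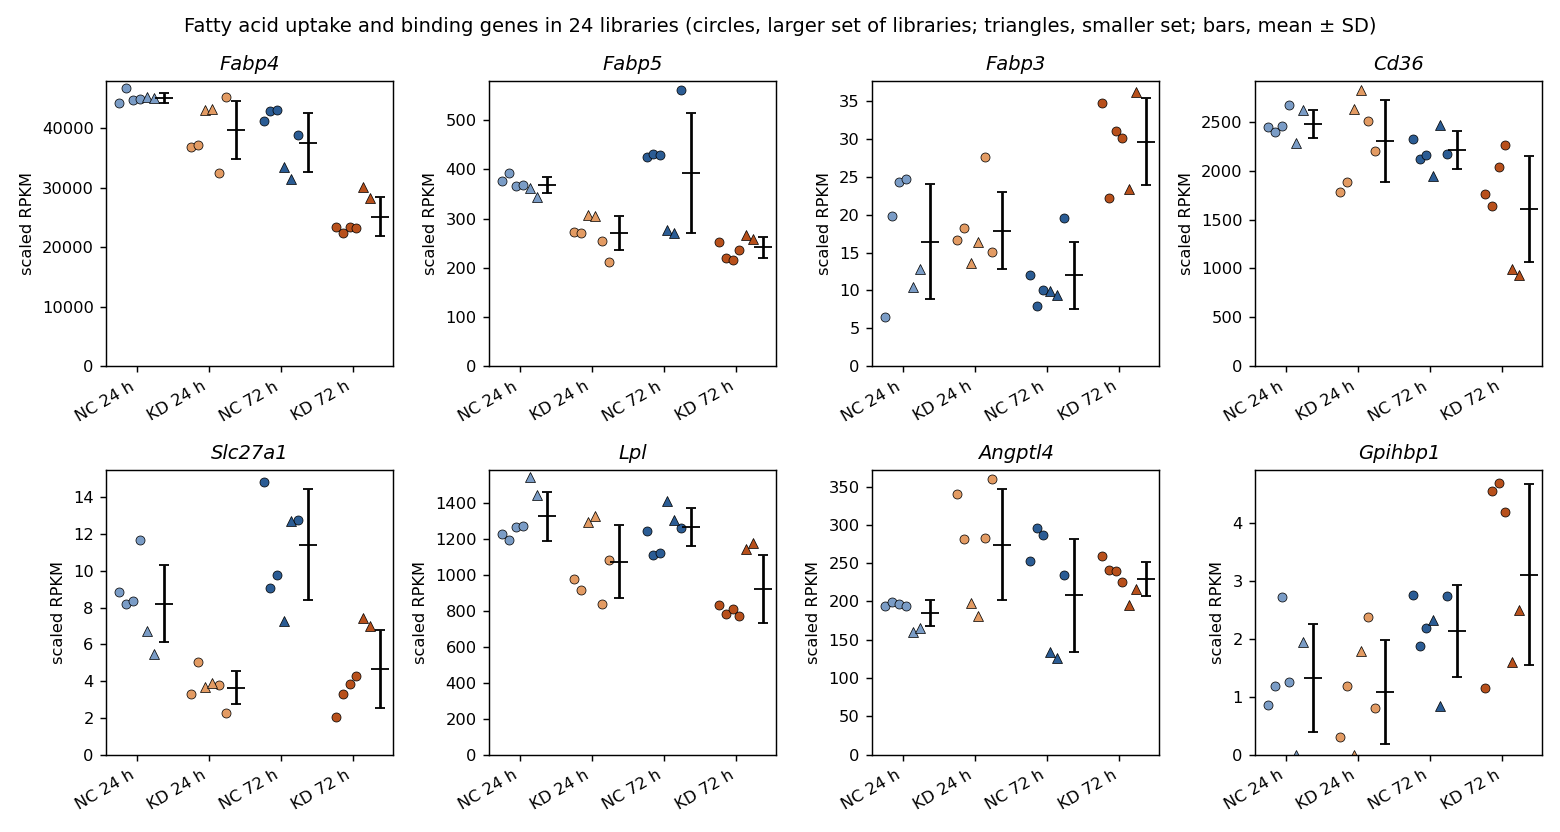
Levels of 8 of the 9 genes in every library (y axis, scaled RPKM from 0) by group (x axis), with circles for the larger and triangles for the smaller set of libraries and bars for the mean ± SD. Fabp3 rises and Fabp4 falls in KD at 72 h without overlap with NC, while Cd36 at 72 h is lowest in the 2 triangles. Slc27a2 is left out because 23 libraries are at 0.

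In the control cells at 24 h, the order of mean levels (scaled RPKM) was Fabp4, Cd36, Lpl, Fabp5, Angptl4, Fabp3, Slc27a1, Gpihbp1 and Slc27a2. This order holds for RPKM of the entries given here and not for reads: Slc27a1 had more reads than Fabp3 in 6 of 6 NC 24 h libraries (69 to 130 against 12 to 67), and Angptl4 had more than Fabp5 in 4 of 6. Of the neighbours in the order by RPKM, only Fabp3 and Slc27a1, and Gpihbp1 and Slc27a2, overlapped in their ranges over libraries. Fabp4 alone took 2.7 to 2.9% of the mapped reads of the NC 24 h libraries and 1.5 to 2.3% of those of KD 72 h. The ranges of Fabp5 and Angptl4 overlapped in KD 24 h, NC 72 h and KD 72 h, and those of Cd36 and Lpl overlapped in KD 72 h. 7 of the 9 genes passed the filter on low values and entered the fits. Slc27a2 and Gpihbp1 did not pass and are given with their reads.

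Of the 7 tested genes, 3 passed the threshold of an adjusted p under 0.05 (limma, Benjamini-Hochberg over all entries) in KD against NC at 24 h. 1 was higher (Angptl4) and 2 were lower (Fabp5 and Slc27a1), against 22.7% of all entries tested, 11.1% higher and 11.6% lower. At 72 h, 5 of 7 passed, with 1 higher (Fabp3) and 4 lower (Fabp4, Fabp5, Lpl and Slc27a1), against 22.5% of all entries, 10.4% higher and 12.1% lower. The median log2 fold change over the 7 genes was -0.18 at 24 h and -0.53 at 72 h, beside -0.01 and 0.01 over all entries tested. From 24 h to 72 h in NC, 1 of 7 passed (Fabp4, lower), against 9.15% of all entries, 4.64% higher and 4.51% lower, and the median of the 7 was -0.05, beside 0.01 over all entries. None of the 7 passed in the test of the interaction between knockdown and time with limma, in which 0.201% of all entries passed, 0.127% in the positive and 0.0742% in the negative direction. In that test, 2 of the 7 had an unadjusted p under 0.05 (Fabp3 and Fabp4), beside 11.8% of all entries, and voom on the recovered reads called 0. The comparisons share control libraries, so the 24 h, 72 h and time results are not independent.

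**Figure D2:**
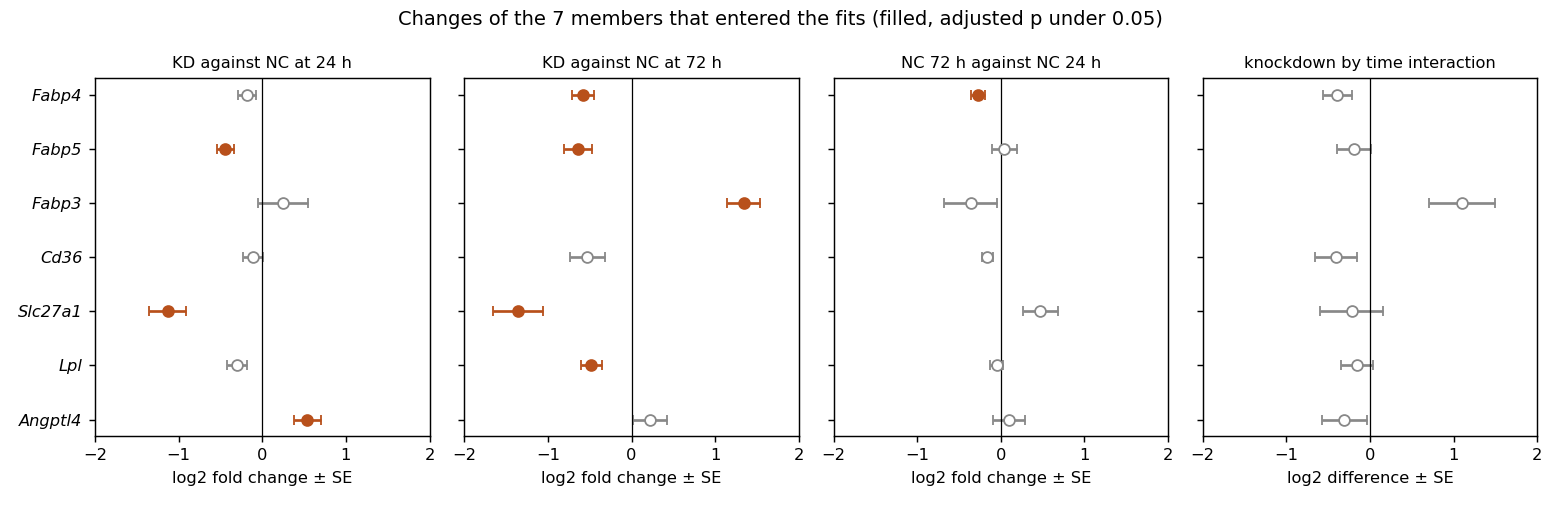
Log2 fold change ± SE (x axis) of the 7 tested genes (y axis) in the 3 comparisons and, in the fourth panel, the difference between the 72 h and 24 h changes. Filled points passed an adjusted p of 0.05. Slc27a1 lies farthest to the left at both times, and Fabp3 is the only filled point to the right of 0 at 72 h.

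The choice of scale mattered at 72 h. On the deposited RPKM scale without scaling, the median of all entries in KD against NC at 72 h shifted from 0.01 to 0.25, and 80.9% of the calls were higher instead of 46.2%. On that scale Fabp3 (1.59, adjusted p = 8.7e-05) and Slc27a1 (-1.11, adjusted p = 0.016) still passed, while Fabp4 (-0.33, adjusted p = 0.13), Fabp5 (-0.39, adjusted p = 0.095) and Lpl (-0.23, adjusted p = 0.30) kept their sign but not the call. Both scales are relative, the deposited one to the mapped reads of a library and the scaled one to the bulk of the entries. The direction of Fabp4, Fabp5 and Lpl at 72 h held on both, while their calls depended on the scale. Without the filter on low values, Fabp4 (-0.57, adjusted p = 0.15) and Lpl (-0.47, adjusted p = 0.059) also lost the call at 72 h, and Angptl4 lost it at 24 h (0.53, adjusted p = 0.059). In bulk RNA, fewer cells of a type and less RNA per cell cannot be told apart.

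Fabp4, the adipocyte fatty acid binding protein, had the highest RPKM of the 9 genes in every group. Its level (scaled RPKM) in NC at 24 h ranged from 44210.0 to 46729 with a median of 45018. In KD at 24 h it ranged from 32572 to 45358 with a median of 40211, and the groups overlapped. The difference at 24 h was -0.18 ± 0.11 on the log2 scale (SE, adjusted p = 0.24), with -0.25 (adjusted p = 0.18) in the larger and -0.06 (adjusted p = 0.38) in the smaller set. In NC at 72 h the 5 samples ranged from 31457 to 42947 with a median of 38865, and in KD at 72 h the libraries ranged from 22456 to 30192 with a median of 23340. All 6 KD libraries lay below all NC samples at 72 h, and the KD mean was 66.8% of the NC mean. The log2 fold change at 72 h was -0.58 ± 0.13 (adjusted p = 0.0057). Within the larger set the log2 fold change at 72 h was -0.82 (adjusted p = 1.7e-05), and within the smaller set -0.15 (adjusted p = 0.42), in which the NC libraries held 31457 and 33582 and the KD libraries 28237 and 30192. In the control cells Fabp4 was lower at 72 h than at 24 h, with a log2 fold change of -0.27 ± 0.08 (adjusted p = 0.041), without overlap of the groups. That call was lost without any 1 of 9 of the 12 libraries (each NC 24 h library and NC 72 h replicates 4, 5 and 6), with values from -0.29 to -0.21. It was also lost with the replicate block (-0.24, adjusted p = 0.078), in the fit of all 4 groups (-0.27, adjusted p = 0.21) and without the filter on low values (-0.28, adjusted p = 0.34). Within the larger set the change was -0.14 (adjusted p = 0.079) and within the smaller -0.46 (adjusted p = 0.0053). Over the same time in NC, 1 of 6 adipocyte markers passed, Adipoq, which fell (-0.43, adjusted p = 0.00014), and the median of the 6 was -0.08. Thy1 (0.75, adjusted p = 0.0029) rose as 1 of 4 tested preadipocyte markers, and Csf1r (0.81, adjusted p = 0.045) as 1 of 3 tested macrophage markers. No other marker of these lists passed, and their part in the change of Fabp4 was not tested. Both Fabp4 entries in the table fell at 72 h and from 24 h to 72 h in NC. Entries of 1 gene overlap, here and for the genes below, so they are no independent check.

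Fabp5, the widely expressed relative of Fabp4, fell at both times. At 24 h its level ranged from 343 to 392 scaled RPKM with a median of 367 in NC and from 212 to 308 with a median of 272 in KD, so that every KD library lay below every NC library. The log2 fold change was -0.44 ± 0.10 (adjusted p = 0.0061), and KD stood at 73.4% of NC. At 72 h the NC samples ranged from 270 to 562 with a median of 425, and KD ranged from 216 to 266 with a median of 244. The groups again did not overlap, although the lowest NC sample and the highest KD library lay close together. The log2 fold change at 72 h was -0.64 ± 0.17 (adjusted p = 0.013). In the larger set the 72 h change was -1.01 (adjusted p = 7e-05). In the smaller set it was -0.05 (adjusted p = 0.83), with NC at 270 and 276 and KD at 259 and 266 scaled RPKM. At 24 h the values were -0.58 (adjusted p = 0.0047) in the larger and -0.20 (adjusted p = 0.17) in the smaller set. All 5 Fabp5 entries fell at both times. Over time in NC the change was 0.04 ± 0.15 (adjusted p = 0.90), with 0.31 in the larger and -0.36 in the smaller set.

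Fabp3, the heart and muscle form, rose in KD at 72 h. At 24 h its level ranged from 6.45 to 24.7 scaled RPKM with a median of 16.3 in NC and from 13.6 to 27.7 with a median of 16.5 in KD. The groups overlapped throughout, and the log2 fold change was 0.25 ± 0.30 (adjusted p = 0.56), with 0.18 (adjusted p = 0.77) in the larger and 0.37 (adjusted p = 0.33) in the smaller set. At 72 h the NC samples ranged from 8.98 to 19.6 with a median of 9.92, and the KD libraries ranged from 22.2 to 36.2 with a median of 30.6. All KD libraries lay above all NC samples, the KD mean was 247% of the NC mean, and the log2 fold change was 1.34 ± 0.20 (adjusted p = 4e-04). The rise was called in both sets, at 1.18 (adjusted p = 0.0046) in the larger and 1.59 (adjusted p = 0.0033) in the smaller set, and it was called on every scale and without any single library. Fabp3 rested on 17 to 34 reads per NC library and 51 to 116 per KD library at 72 h, so single values carry a wide counting error. The change of Fabp3 over time in NC was -0.36 ± 0.32 (adjusted p = 0.57), and the interaction was 1.10 ± 0.39 (adjusted p = 0.25). The last exon of Fabp3 overlaps the last exon of Zcchc17 on the opposite strand by 81 bases (GENCODE M21), and the sources used here do not state whether the counting used strand. Zcchc17 also rose at 72 h, with a log2 fold change of 0.67 ± 0.13 (adjusted p = 0.0023), from 25.3 ± 3.72 to 39.99 ± 5.21 scaled RPKM (SD, n = 5 and 6), and differed by 0.11 ± 0.17 at 24 h (adjusted p = 0.67). The part of the shared bases in the Fabp3 values was not tested. Reads shared with the pseudogene Fabp3-ps1, which has no entry in the table, are also uncertain, as are those shared between Fabp5 and Fabp5l2. Among transcripts of the family, the longest run that Fabp3 shared with Fabp4 was 14 bases and with Fabp5 11 bases, and Fabp4 and Fabp5 shared 16 bases. Longer runs were shared by Fabp3 and Fabp7 (20 bases), Fabp4 and Fabp7 (17 bases), and Fabp4 and Pmp2 (23 bases).

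The proportions between the binding proteins were compared within each library, which removes the scale factor. The log2 ratio of Fabp3 to Fabp4 at 72 h was -11.67 ± 0.46 in NC and -9.74 ± 0.35 in KD (SD, n = 5 and 6). The ratio was 3.81-fold higher in KD with no overlap (exact permutation p = 0.0022, two-sided, the smallest possible, adjusted p = 0.019 over 9 ratio tests), and it differed by 2.01 within the larger and 1.75 within the smaller set. At 24 h the difference was 0.43 (exact permutation p = 0.29, adjusted p = 0.44). The log2 ratio of Fabp5 to Fabp4 at 24 h was -6.94 ± 0.06 in NC and -7.20 ± 0.27 in KD (exact permutation p = 0.0043, adjusted p = 0.019). Without KD 24 h replicate 6, the lowest library at -7.74, the difference was -0.15 and it was still called. The call was lost without NC 24 h replicate 3, 4 or 5 (-0.26 to -0.27, adjusted p = 0.058). At 72 h this ratio differed by -0.07 (exact permutation p = 0.71, adjusted p = 0.80), since Fabp4 and Fabp5 were both lower. In NC the ratio of Fabp5 to Fabp4 was higher at 72 h than at 24 h by 0.31 (exact permutation p = 0.0087, adjusted p = 0.026), with 0.46 in the larger and 0.11 in the smaller set. This call was lost without NC 24 h replicate 3, 4, 5 or 6 or NC 72 h replicate 1 or 6, at 0.18 to 0.31. With the replicate numbers as pairs, the 3 ratio differences called above each had the smallest p that 6 pairs allow in the exact sign-flip test (0.031). This adjusts to 0.094 over the 9 tests, so none of the 3 passed. No lower p is possible with 6 pairs, so to pass this test more of the 9 ratios would have had to reach it. For this test alone, NC 72 h replicates 2 and 3 were not averaged.

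**Figure D3:**
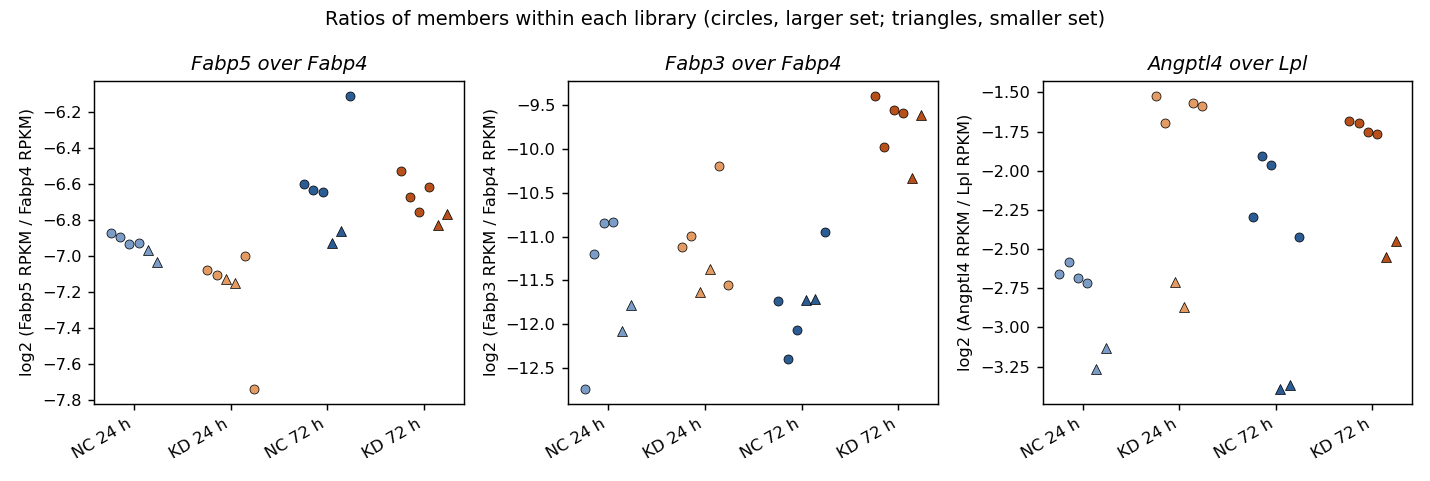
Log2 ratios of 2 genes within each library (y axis, deposited RPKM) by group (x axis), with circles for the larger and triangles for the smaller set. Fabp3 over Fabp4 in KD 72 h lies above every NC 72 h library, and Angptl4 over Lpl separates into circles and triangles in every group.

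Cd36, the membrane fatty acid translocase, had the second highest mean RPKM of the 9 genes in every group. At 24 h it ranged from 2290 to 2671 scaled RPKM with a median of 2453 in NC and from 1788 to 2826 with a median of 2359 in KD, which contained the whole NC range. The difference was -0.11 ± 0.12 on the log2 scale (adjusted p = 0.53), and it was -0.26 (adjusted p = 0.15) for the larger set and 0.16 (adjusted p = 0.25) for the smaller. At 72 h NC ranged from 1951 to 2468 with a median of 2172 and KD from 932 to 2268 with a median of 1700. The groups overlapped, and the log2 difference of -0.53 ± 0.21 did not pass (adjusted p = 0.085). The 2 lowest KD libraries at 72 h, at 932 and 992 scaled RPKM, were those of the smaller set, and the other 4 held 1640 to 2268. Within the smaller set the difference at 72 h was -1.18 (adjusted p = 0.00072), and within the larger set it was -0.20 (adjusted p = 0.18). Without KD 72 h replicate 4 the pooled difference was -0.65 (adjusted p = 0.037), and in the fit of all 4 groups it was -0.53 (adjusted p = 0.038). On the deposited scale it was -0.28 (adjusted p = 0.25). The interaction of knockdown and time passed for Cd36 within the smaller set (-1.34, adjusted p = 0.001) and was 0.05 in the larger set (adjusted p = 0.92). In the limma fit of all libraries, 0 of 18 Cd36 entries were called at 72 h, while 15 had an unadjusted p under 0.05. The gene is given by the entry NM_001159556 of 3399 bases at a mean of 2122 RPKM, while the short entry AK054217 of 377 bases averaged 15905 RPKM. Over time in NC the change was -0.16 ± 0.07 (adjusted p = 0.17).

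**Figure D4:**
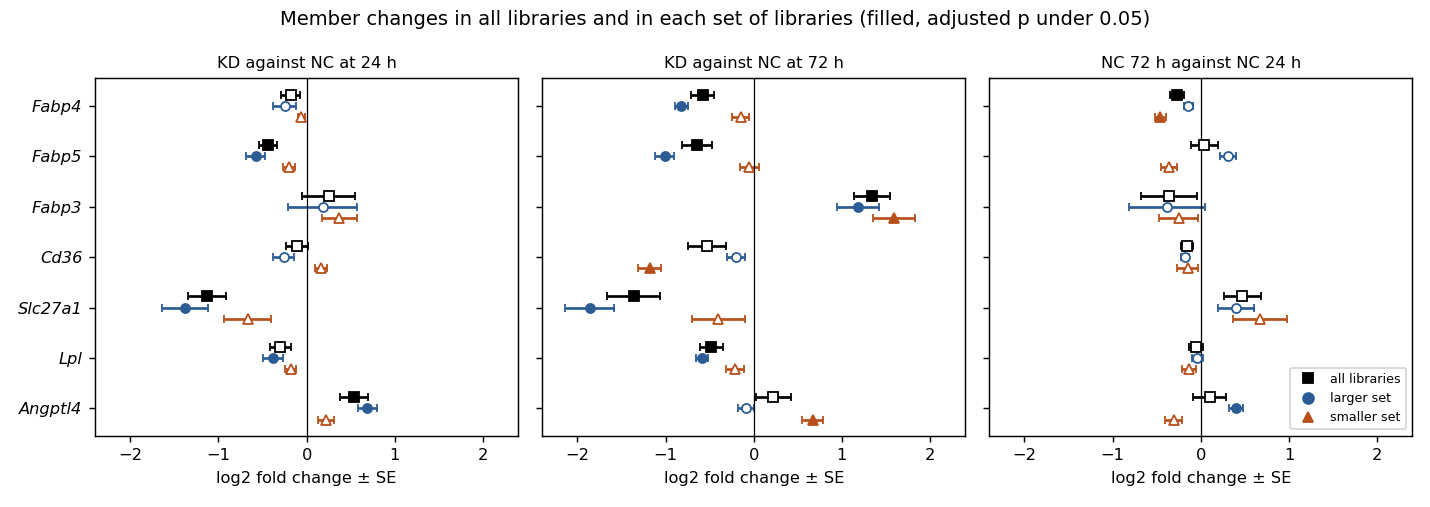
Log2 fold change ± SE (x axis) of the 7 tested genes (y axis) in all libraries, in the larger and in the smaller set, for the 3 comparisons. Filled points passed an adjusted p of 0.05. At 72 h Cd36 and Angptl4 are filled in the smaller set only, Fabp4, Fabp5, Slc27a1 and Lpl in the larger set and in all libraries, and Fabp3 in all 3.

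Slc27a1, which encodes fatty acid transport protein 1, had the lowest log2 fold change of the 7 genes at 24 h and at 72 h. At 24 h it ranged from 5.46 to 11.7 scaled RPKM with a median of 8.28 in NC and from 2.29 to 5.02 with a median of 3.72 in KD. The groups did not overlap, KD stood at 44.5% of NC, and the log2 fold change was -1.13 ± 0.22 (adjusted p = 0.0028). At 72 h NC ranged from 7.28 to 14.9 with a median of 12.7 and KD from 2.05 to 7.46 with a median of 4.06. The highest KD library lay above the lowest NC sample, and the log2 fold change was -1.36 ± 0.30 (adjusted p = 0.0058). The larger set gave -1.86 (adjusted p = 0.00066), with KD at 2.05 to 4.27. The smaller set gave -0.40 (adjusted p = 0.45), with KD at 7.0 and 7.46. At 24 h the values were -1.38 (adjusted p = 0.0048) and -0.67 (adjusted p = 0.20). The entry given for Slc27a1 rested on 10 to 160 reads per library. The highest entry of the gene, AK137700, gave -1.08 (adjusted p = 7.5e-05, limma) at 24 h and -1.43 (adjusted p = 5.1e-05) at 72 h. All 7 tested entries of Slc27a1 fell at both times. From 24 h to 72 h in NC the change was 0.47 ± 0.21 (adjusted p = 0.20), with 0.40 in the larger and 0.67 in the smaller set, while the entry AK137700, at a mean of 38.9 RPKM the highest entry of the gene, rose by 0.72 (adjusted p = 0.0057).

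Slc27a2, which encodes fatty acid transport protein 2 and is best known from liver and kidney, was nearly absent from these libraries. A single read was found, in KD 72 h replicate 5, and the other 23 libraries were at 0. A count of 0 allows up to 3 reads, or 0.19 to 0.739 RPKM depending on the depth of the library, for counting error only. A difference between the groups was not detectable at this depth.

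Lpl, the lipase itself, ranged from 1190 to 1542 scaled RPKM with a median of 1268 in NC at 24 h and from 838 to 1328 with a median of 1029 in KD. The groups overlapped, and the log2 difference was -0.30 ± 0.12 (adjusted p = 0.091). Without KD 24 h replicate 3 or 4 it was -0.36 (adjusted p = 0.049) or -0.37 (adjusted p = 0.038). At 72 h NC ranged from 1114 to 1407 with a median of 1262 and KD from 768 to 1178 with a median of 819. Most KD libraries lay below NC, the KD mean was 72.5% of the NC mean, and the log2 fold change of Lpl was -0.48 ± 0.13 (adjusted p = 0.017). The 2 KD libraries that reached the NC range, at 1145 and 1178 scaled RPKM, were those of the smaller set. Within the sets the 72 h change was -0.59 (larger, adjusted p = 0.0002) and -0.21 (smaller, adjusted p = 0.21). At 24 h the larger set gave -0.38 (adjusted p = 0.026) and the smaller -0.18 (adjusted p = 0.14). Of 16 Lpl entries, 4 fell at 24 h and 11 at 72 h. Over time in NC the change was -0.05 ± 0.08 (adjusted p = 0.75).

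Angptl4, the secreted inhibitor of LPL, rose at 24 h. NC ranged from 160 to 199 scaled RPKM with a median of 194 and KD from 181 to 360 with a median of 282. The groups overlapped only through the 2 KD libraries of the smaller set, at 181 and 197, and the other 4 held 282 to 360. The log2 fold change was 0.54 ± 0.16 (adjusted p = 0.027), with 0.69 (adjusted p = 0.0028) in the larger and 0.22 (adjusted p = 0.19) in the smaller set. The call was lost without any 1 of 5 of the 12 libraries (KD 24 h replicates 1, 2 and 5, and NC 24 h replicates 5 and 6), at 0.47 to 0.53 with an adjusted p from 0.052 to 0.065, and with the replicate block (0.54, adjusted p = 0.054). At 72 h NC ranged from 127 to 291 with a median of 235 and KD from 196 to 259 with a median of 233. The NC libraries of the smaller set held 127 and 134 and those of the larger set 235 to 291. The pooled difference was 0.22 ± 0.20 (adjusted p = 0.45), whereas the smaller set alone gave 0.67 (adjusted p = 0.009) and the larger set alone -0.09 (adjusted p = 0.49). The difference between the 72 h and the 24 h change was -0.79 (adjusted p = 0.014) within the larger set and 0.44 (adjusted p = 0.13) within the smaller set. Over time in NC the change was 0.10 ± 0.19 (adjusted p = 0.81) over all libraries, 0.40 (adjusted p = 0.0088) in the larger and -0.31 (adjusted p = 0.17) in the smaller set.

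The log2 ratio of the inhibitor Angptl4 to Lpl differed between KD and NC by 0.85 at 24 h (exact permutation p = 0.03, adjusted p = 0.068) and by 0.70 at 72 h (exact permutation p = 0.074, adjusted p = 0.13). Without KD 24 h replicate 3 or 4 the 24 h difference passed, at 0.99 (adjusted p = 0.029) and 1.02 (adjusted p = 0.019). KD and NC did not overlap within either set at either time. Within the larger set the difference was 1.07 at 24 h and 0.49 at 72 h, each with an exact permutation p of 0.029, two-sided and unadjusted, the smallest that set allows. Within the smaller set it was 0.41 at 24 h and 0.88 at 72 h, where the smallest exact permutation p is 0.33.

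Gpihbp1, which holds LPL at the capillary wall and is made by endothelial cells, rested on 0 to 16 reads per library. It was above 0 in 22 of 24 libraries. At 24 h it ranged from 0 to 2.73 scaled RPKM with a median of 1.23 in NC and from 0 to 2.38 with a median of 0.999 in KD, and at 72 h from 0.836 to 2.77 with a median of 2.32 in NC and from 1.15 to 4.69 with a median of 3.35 in KD. The groups overlapped at both times. On the deposited scale the means at 24 h were 1.27 ± 0.893 in NC and 1.07 ± 0.86 in KD (exact permutation p = 0.70, unadjusted). At 72 h the means were 2.01 ± 0.739 and 3.44 ± 1.6 RPKM (exact permutation p = 0.11, unadjusted). The summed level of 6 endothelial markers (Pecam1, Cdh5, Kdr, Tek, Cldn5 and Emcn) did not exceed 3.02 scaled RPKM in any library.

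The other genes of the pathway were taken from a list of 42 genes: further FABPs and fatty acid transport proteins, acyl-CoA synthetases, proteins that mature or regulate LPL, lipoprotein receptors and other membrane proteins of uptake. At 24 h, 2 of 28 tested genes were higher and 7 lower, with a median log2 fold change of -0.10 beside -0.01 over all entries. At 72 h, 5 of 29 were higher and 8 lower, with a median of -0.18 beside 0.01. Those shares stand beside the 22.7% and 22.5% of all entries given above. Both tested FABPs of the list rose at 72 h, when 10.4% of all entries were higher. Fabp7, the brain form, rose from 9.14 ± 3.67 to 18.7 ± 6.71 scaled RPKM at 24 h (1.08 ± 0.29 on the log2 scale, adjusted p = 0.016) and from 20.99 ± 16.0 to 43.0 ± 8.34 at 72 h (1.27 ± 0.33, adjusted p = 0.013). Its groups overlapped at both times, at 72 h with NC from 9.08 to 48.6 and KD from 28.2 to 51.0 scaled RPKM. Fabp12, which lies next to Fabp4 on chromosome 3, rose at 72 h from 2.13 ± 0.691 to 5.17 ± 0.517 scaled RPKM (1.30 ± 0.22, adjusted p = 0.00095). Slc27a3 (0.88 ± 0.30, adjusted p = 0.046) and Slc27a4 (0.60 ± 0.18, adjusted p = 0.025) of the transport protein family also rose at 72 h, opposite in sign to Slc27a1. Slc27a3 lay at 0.687 to 2.28 scaled RPKM in NC and 1.58 to 2.94 in KD at 72 h, so it may have passed the filter only through KD. It did not pass the filter at 24 h.

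Lmf1, which encodes a factor that Lpl needs to fold in the endoplasmic reticulum, was lower at both times, with a log2 fold change of -1.04 ± 0.20 at 24 h (adjusted p = 0.0029) and -1.27 ± 0.18 at 72 h (adjusted p = 0.00027). Ffar4, a receptor for long-chain fatty acids, changed by -0.87 ± 0.24 at 24 h (adjusted p = 0.019) and by -1.72 ± 0.19 at 72 h (adjusted p = 4.1e-05), when NC averaged 17.2 ± 5.00 and KD 4.98 ± 0.648 scaled RPKM. Lrp1, a lipoprotein receptor, changed by -0.76 ± 0.19 at 24 h (adjusted p = 0.012). Of the 5 tested genes of acyl-CoA synthesis and binding, 2 fell at each time, and of 13 LPL partners and receptors, 2 fell at 24 h and 3 at 72 h, beside 11.6% and 12.1% of all entries lower at those times. Over time in NC, 2 of 28 list genes passed, beside 9.15% of all entries, and both fell: the caveolin Cav1 (-0.59 ± 0.07, adjusted p = 0.00016) and Apoe (-0.30 ± 0.07, adjusted p = 0.011). None of the 30 list genes tested passed in the interaction with limma, and 3 of them had an unadjusted p under 0.05, beside 11.8% of all entries.

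**Figure D5:**
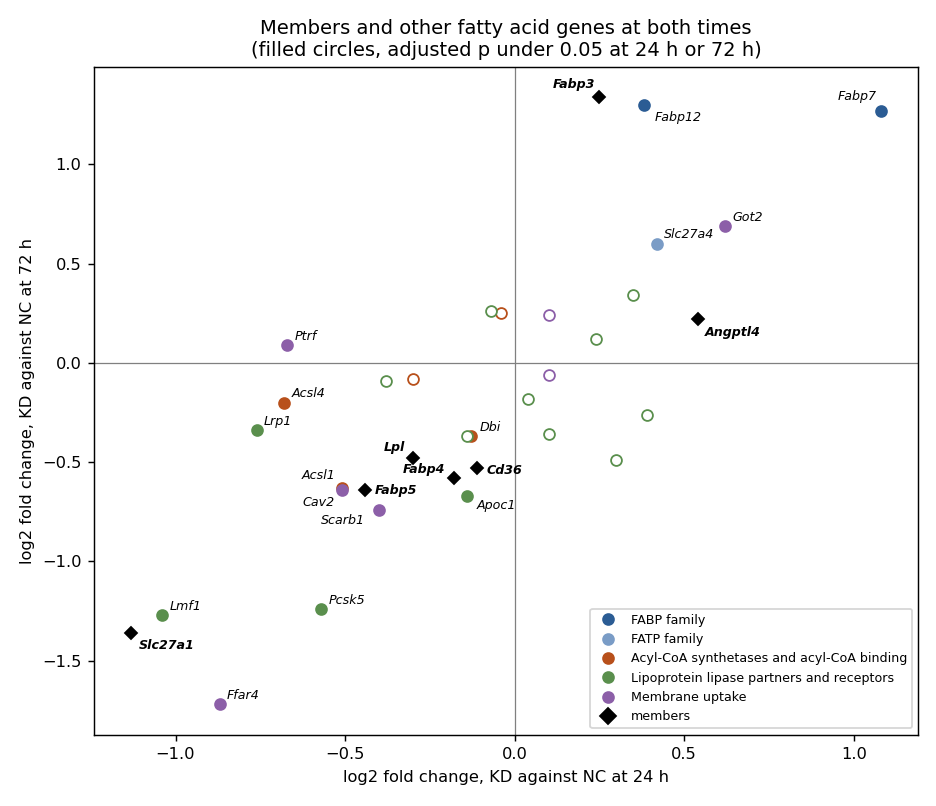
Log2 fold change of KD against NC at 24 h (x axis) and at 72 h (y axis) for the tested genes of the list (circles, coloured by role) and the 7 tested members (diamonds). Filled circles passed an adjusted p of 0.05 at 24 h or 72 h. Slc27a1, Lmf1 and Ffar4 lie at the lower left, and Fabp3, Fabp7 and Fabp12 at the top right.

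For each of the 7 genes, the genes with the most similar pattern were sought among 12677 genes by the root mean square difference of centred log2 levels over 23 samples. Closest to Fabp4 were Uqcrfs1 (0.137) and Uqcr11 (0.145), both subunits of respiratory complex III. Closest to Fabp5 were Ndufb3 (0.133), a subunit of complex I, and Pdhb (0.160), a subunit of pyruvate dehydrogenase. Closest to Lpl were Dbi (0.149), the acyl-CoA binding protein, and Ywhab (0.152). Slc27a1 was nearest to Adck3 (0.310), of the coenzyme Q pathway, and Nudt7 (0.318), a peroxisomal coenzyme A hydrolase. Fabp3 was nearest to Numa1 (0.391) and Sh3pxd2b (0.424), Cd36 to Ppwd1 (0.201) and Larp4 (0.203), and Angptl4 to Anxa7 (0.162) and Clptm1l (0.199). The values for Fabp3 and Slc27a1, whose given entries had the fewest reads of the 7, were the largest. All libraries are shared between these genes, and the search gives no test.

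Markers of the cell types in the culture were read beside the 9 genes. The summed level of 6 adipocyte markers was 5009 to 5430 scaled RPKM in NC and 2507 to 5431 in KD at 24 h, and 3978 to 4587 in NC and 2666 to 4164 in KD at 72 h. At 24 h, 2 of the 6 fell (Adipoq by -0.55 and Lipe by -0.41 on the log2 scale) and none rose, and at 72 h 3 of the 6 fell (Adipoq by -0.96, Cfd by -1.52 and Retn by -1.01) and none rose. The summed level of 6 preadipocyte or fibroblast markers was 440 to 1023 in NC and 402 to 801 in KD at 24 h, and 392 to 1028 in NC and 684 to 873 in KD at 72 h. Of these, 2 of 5 tested rose at 72 h, Pdgfrb (0.59) and Cd34 (2.02). Cd34 lay at 0.149 to 0.739 scaled RPKM in NC and 1.05 to 2.70 in KD at 72 h, so it may have passed the filter only through KD. Macrophage markers summed to 2.81 to 31.6 and skeletal muscle markers to 1.31 to 38.2 scaled RPKM over all libraries, with Myh4 at 0 in all NC 24 h and KD libraries. Of 3 tested macrophage markers, Csf1r rose at 24 h (1.22) and 72 h (1.23) and Lyz2 fell at 72 h (-3.68). Lyz2 lay at 4.87 to 26.1 scaled RPKM in NC and 0.217 to 3.85 in KD at 72 h, so it may have passed the filter only through NC. Acta1, the 1 skeletal muscle marker tested, was lower in KD at 72 h (-1.75, adjusted p = 0.028), where Fabp3 was higher. No endothelial marker passed the filter. The part of these differences in the changes of Fabp3, Fabp4, Fabp5, Lpl and Slc27a1 was not tested.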

How the data were processed

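RNA was sequenced by BRB-seq (3′ ends, barcoded oligo-dT priming) in 24 libraries of 4 groups. The authors state that the reads were mapped to the NCBI Reference Sequence Database, with the Genomatix Suite used for analysis, and deposited RPKM per transcript entry. The deposited entries are not RefSeq alone: of 168326, 31754 are RefSeq, 88340 have names that begin with AK and 48232 with ENSMUST. The build and versions are not given in the sources used here. RPKM divides by transcript length, which reads from 3′ ends do not follow, and entries of 1 gene overlap. Because RPKM steps are whole reads over length and depth, reads were recovered for 101294 entries, with 94.1 to 94.7% of low values whole within 0.05 reads in 23 libraries and 73.5% in NC 72 h replicate 6, where 23.6% were steps of 0.5 reads. 0 sample columns were left unused. The members and gene lists were chosen with earlier results of these data known.

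Levels were scaled by a trimmed mean of log ratios (30% of log ratios and 5% of levels trimmed). Entries with at least 10 reads in a library of median depth, in as many samples as the smaller group holds, and 15 reads in total entered the fit (1 RPKM for entries without a recovered length). log2(scaled RPKM + 0.1) was fitted with limma 3.58.1 (R 4.3.3, lmFit and eBayes with trend) on the compared groups, with Benjamini-Hochberg adjustment over all entries and a threshold of 0.05. The pseudocount of 0.1 RPKM understates the changes of low genes. Single values were tested by exact two-sided permutation tests. On data simulated for the 72 h comparison, limma called 61.2% of entries changed by 1 and 95.9% of those changed by 2 on the log2 scale, with 9 false calls among 53288 entries. The simulated noise was independent between entries and libraries, without sets of libraries or overlapping entries. Its false calls therefore do not give the error rate of the real fits. Same-numbered libraries did not deviate together (mean correlations of -0.05, 0.02 and 0.03), so the replicate block is an alternative. Named were all 9 members, up to 4 called list genes with the largest changes per comparison and the 2 genes most like each member. Slc27a3, Slc27a4, Zcchc17 and the entry AK137700 were added after their values were seen. Alternatives changed the pseudocount, filter, scaling, entries, block, samples in the fit, test (voom on recovered reads) and libraries.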

Additional observations from a re-analysis of the deposited data

Results flagged for a closer look

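4 of 45 groups of values examined had a library far from the rest, where chance gives about 1 in 20 such groups. Fabp3 stood at 27.7 scaled RPKM in KD 24 h replicate 5 and at 19.6 scaled RPKM in NC 72 h replicate 6, each the highest of its group. Slc27a2 stood at 0.11 scaled RPKM in KD 72 h replicate 5, from 1 read, with the rest of that group at 0. The log2 ratio of Fabp5 to Fabp4 was -7.74 in KD 24 h replicate 6, the lowest of its group.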

How the results depend on the processing

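Over all alternatives, 723 of 777 values of single genes and 136 of 153 ratio values kept their direction and their side of the threshold, and 92 of 111 counts of genes called stayed within 1.5 times the reported count, which allows for a gained or lost call. The cause of each change below was not tested, beyond fewer libraries where a set or a library was left out. With the smaller set alone, 0 genes were called at 24 h and 3 at 72 h (Fabp3, Cd36 and Angptl4). Without the filter 3 were called at 72 h, and on the deposited scale 2. For the time comparison in NC, 0 were called without the filter, 0 with the replicate block, 0 in a fit of all 4 groups and 2 with the highest entry of any type, and leaving out 1 library gave 0 to 1. The interaction gave 1 call within the larger set (Angptl4) and 1 within the smaller (Cd36). The smaller set turned the sign of Cd36 at 24 h (0.16), of Fabp5 (-0.36) and Angptl4 (-0.31) over time in NC, and of Fabp5 (0.15), Angptl4 (0.44) and Slc27a1 (0.27) in the interaction. The larger set turned Angptl4 at 72 h (-0.09) and Cd36 in the interaction (0.05), and the deposited scale turned Lpl in the interaction (0.02). Leaving out 1 library gave -0.11 to 0.16 for Fabp5 over time in NC, which turned without NC 72 h replicate 1 or 6.

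The replicate numbers did not pair the samples. With the replicate block the ratio of Fabp5 to Fabp4 was -0.26 at 24 h and 0.31 over time in NC, and that of Fabp3 to Fabp4 was 2.02 at 72 h. Each had the smallest p that 6 pairs allow (0.031 in the exact sign-flip test), and none passed after adjustment (0.094). The block took the call from Angptl4 at 24 h and from Fabp4 over time in NC and changed no other call of the 7 genes. The block and the sign-flip test kept NC 72 h replicates 2 and 3 apart. Where NC 72 h enters, these agreeing libraries count as 2 samples, so calls kept there are no independent check. Leaving out 1 library gave -0.30 to -0.15 for Fabp5 over Fabp4 at 24 h, -0.14 to 0.06 at 72 h and 0.18 to 0.39 over time in NC, -0.32 to 0.06 for Fabp3 over Fabp4 over time in NC, and 0.75 to 1.02 for Angptl4 over Lpl at 24 h. Few reads limit the values of Slc27a2, Gpihbp1, Fabp3 and the entry given for Slc27a1.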
